A study of Drosophila melanogaster with 37 samples.

Results

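The genes described here are 10 RNA-binding protein genes of Drosophila melanogaster with known roles in neurons or in splicing. They were chosen by name: the ELAV family members elav, fne and Rbp9, the Sex-lethal relative ssx, the splicing regulators mbl, heph, ps and how, the RNA-editing enzyme gene Adar and the translation regulator gene Fmr1. They are 10 of the 17559 genes in each expression table and all 10 are among the 12882 genes with a mean of at least 1 TPM (transcripts per 1000000) over the libraries, the set in which tests were made. TPM is a length-corrected share of the mRNA of a library, scaled to the same sum in each, so it can be set side by side between genes. The study sequenced RNA of sex-specific fly tissues to compare back-splicing between females and males, and the mRNA (PolyA) fraction used here measured the expression of the genes themselves. It holds 12 libraries, 2 each of female head, male head, female body, male body, ovary and testis. All flies were adults of the wild type Canton-S strain, with no treatment, dissected in the second day after eclosion, and the tissue called testis was the whole inner male reproductive system with seminal vesicle, accessory gland and ejaculatory duct. The labels do not say whether replicates came from separate collections of flies, so p-values measure only the spread between these libraries.

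ELAV proteins bind uridine-rich RNA with RNA recognition motifs and regulate alternative splicing, alternative polyadenylation and mRNA stability. In flies elav is the classic marker of postmitotic neurons. Splicing regulators such as muscleblind, the polypyrimidine tract-binding protein and pasilla bind beside alternative exons and decide their inclusion, and ADAR converts adenosines to inosines in many neuronal mRNAs. FMRP, the product of Fmr1, represses translation in neurons and in the germline.

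The 4 RRM genes of the ELAV and Sex-lethal type are shown through the 24 bases that code for the RNP1 octapeptide of their first RNA recognition motif, the stretch that contacts RNA, because the genes share this motif while their levels over the tissues differ. Sequences are 5′ to 3′ on the coding strand of build dm6, and capitals mark the 9 bases that differ between any of the 4 genes, the other 15 being the same in all 4.
elav (X:518614-518637, minus strand, coding exon): CtGggctaCggCttTgtTAaCtaT
fne (X:12943201-12943224, plus strand, coding exon): CtGggctaTggAttTgtTAaTtaC
Rbp9 (2L:2961747-2961770, plus strand, coding exon): CtGggctaCggAttCgtGAaCtaC
ssx (X:1371927-1371950, plus strand, coding exon): TtCggctaCggCttCgtGGaCtaC
Over these 24 bases elav and fne, elav and Rbp9, fne and Rbp9, and Rbp9 and ssx each shared 20, elav and ssx 18 and fne and ssx 16. Over the aligned parts of the translated coding sequences, fne and Rbp9 were 72.7% identical, elav and fne 66.5% and elav and Rbp9 58.7%, against 33.5% to 41.2% for ssx with each of the 3.

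The genes lie at X:509235-523226 (elav), X:12917477-12950417 (fne), 2L:2954762-2968434 (Rbp9), X:1370580-1375257 (ssx), 2R:17216549-17379376 (mbl), 3R:31846987-32015520 (heph), 3R:9417940-9455500 (ps), 3R:22042191-22079321 (how), X:1773725-1788065 (Adar) and 3R:10101420-10110121 (Fmr1). No exonic base of fne, mbl, heph, ps, how or Fmr1 lies in an exon of another gene. Of the exonic bases of elav, 34.2% are shared with arg on the opposite strand or the non-coding lncRNA:enrr, and for Adar, ssx and Rbp9 the share was 5.56%, 4.84% and 1.76%. The methods state strand-specific sequencing only for other RNA fractions, so reads of such neighbours may be counted to these genes.

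Some features of the libraries bear on all values. The mitochondrial transcript mt:ATPase8 took 15.7% to 57.6% of all TPM in 8 libraries and was listed at 0 in replicate 2 of the bodies, ovary and testis, which changes the share left for every other gene. Replicate 2 was above replicate 1 in 59 of the 60 pairs of TPM values of the 10 genes, with a median ratio of 2.25, whereas coverage per base, which is not set to a fixed sum, was higher in 39 of 60 with a median ratio of 1.13. TPM keeps no depth, and the numbers of reads per library were not used here. Among markers, 8 neuronal genes summed to 1430 to 2240 TPM in heads, 44.0 to 142 in bodies, 21.3 to 55.5 in ovary and 19.0 to 39.3 in testis. The ovary markers reached 19400 to 54700 TPM in female bodies, against 30100 to 51600 in ovary, and the testis germline markers 2460 to 2900 TPM in male bodies, against 8130 to 9840 in testis, so bodies contained the gonads. In whole tissues, fewer cells of a type and less RNA per cell cannot be told apart.

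**Figure D1:**
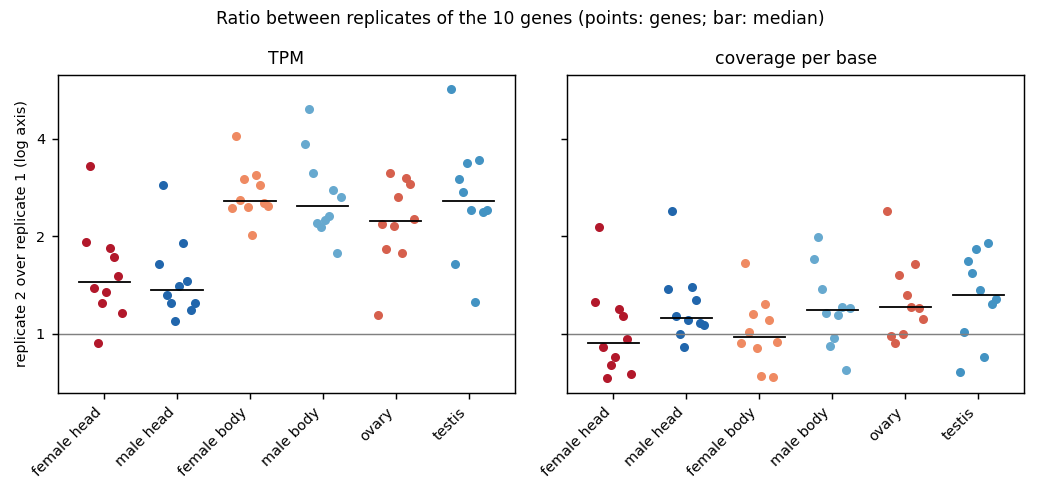
Ratio of replicate 2 to replicate 1 (log axis) for the 10 genes in each group, for TPM (left) and coverage per base (right); points are genes and bars are medians. The median TPM ratio was 1.44 and 1.36 in female and male heads and 2.22 to 2.57 in the other 4 groups, while the median coverage ratio lay between 0.936 and 1.32 in all 6.

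elav was an mRNA of heads. Its level was 20.2 and 38.9 TPM in female heads and 25.7 and 42.2 TPM in male heads, against 1.31 and 3.20 TPM in female bodies and 1.46 and 5.61 TPM in male bodies. It was 0.841 and 0.956 TPM in ovary and 0.209 and 1.19 TPM in testis. All 4 head libraries lay above the other 8, and the gonads lay below female bodies, while male and female heads, both bodies, and both gonads overlapped. On the log2(TPM + 1) scale, which understates changes of low genes, elav was higher in female heads than female bodies by 3.22 ± 0.57 (SE; limma, adjusted p = 0.00157) and than ovary by 3.94 ± 0.57 (adjusted p = 0.000328). In males it was higher in heads than bodies by 3.08 ± 0.57 (adjusted p = 0.00115) and than testis by 4.38 ± 0.57 (adjusted p = 7.44e-05).

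fne (found in neurons) had the largest span of the 10 genes. It stood at 48.6 and 160 TPM in female heads and 67.1 and 193 TPM in male heads, against 0.986 and 4.02 TPM in female bodies and 1.90 and 9.40 TPM in male bodies. In ovary it was 0.109 and 0.237 TPM and in testis 0.151 and 0.248 TPM, under 1 TPM in all 4 gonad libraries. The groups fell into the order heads, bodies, gonads with no overlap between these 3 levels except between male and female libraries of the same level. It was higher in heads than bodies by 4.82 ± 0.79 in females (adjusted p = 0.00103) and 4.39 ± 0.79 in males (adjusted p = 0.000981), and than gonads by 6.25 ± 0.79 (adjusted p = 0.000145) and 6.59 ± 0.79 (adjusted p = 4.2e-05). In each head library fne exceeded elav in TPM by 2.40 to 4.58 times, and in each gonad library it was below elav, at 0.129 to 0.722 of its TPM.

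Rbp9, which in flies also has a known function in female germ cell differentiation, was the most abundant ELAV family mRNA in all 12 libraries. It reached 177 and 244 TPM in female heads and 196 and 259 TPM in male heads, against 16.6 and 42.9 TPM in female bodies and 33.7 and 106 TPM in male bodies. Ovary had 3.39 and 6.20 TPM and testis 16.3 and 49.2 TPM. elav and fne lay near or below 1 TPM in both gonads, where the log2(TPM + 1) scale could hardly show a difference. Rbp9 was lower in ovary than testis by 2.39 on the log2 scale (log2 fold change -2.39 ± 0.71, adjusted p = 0.015). It was higher in female heads than female bodies by 2.91 ± 0.71 (adjusted p = 0.00966), than ovary by 5.21 ± 0.71 (adjusted p = 0.000223), and in male heads than testis by 2.94 ± 0.71 (adjusted p = 0.00508). In male heads against male bodies the difference was 1.90 ± 0.71 and missed the threshold (adjusted p = 0.0556, and 0.000761 in a fit blocked on the replicate number). The ovary against testis call was lost without ovary replicate 1 (-2.04, adjusted p = 0.0782) or testis replicate 2 (-1.62, adjusted p = 0.109), and that of female heads against bodies without female head replicate 2 (2.68, adjusted p = 0.0623) or female body replicate 1 (2.25, adjusted p = 0.0637).

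**Figure D2:**
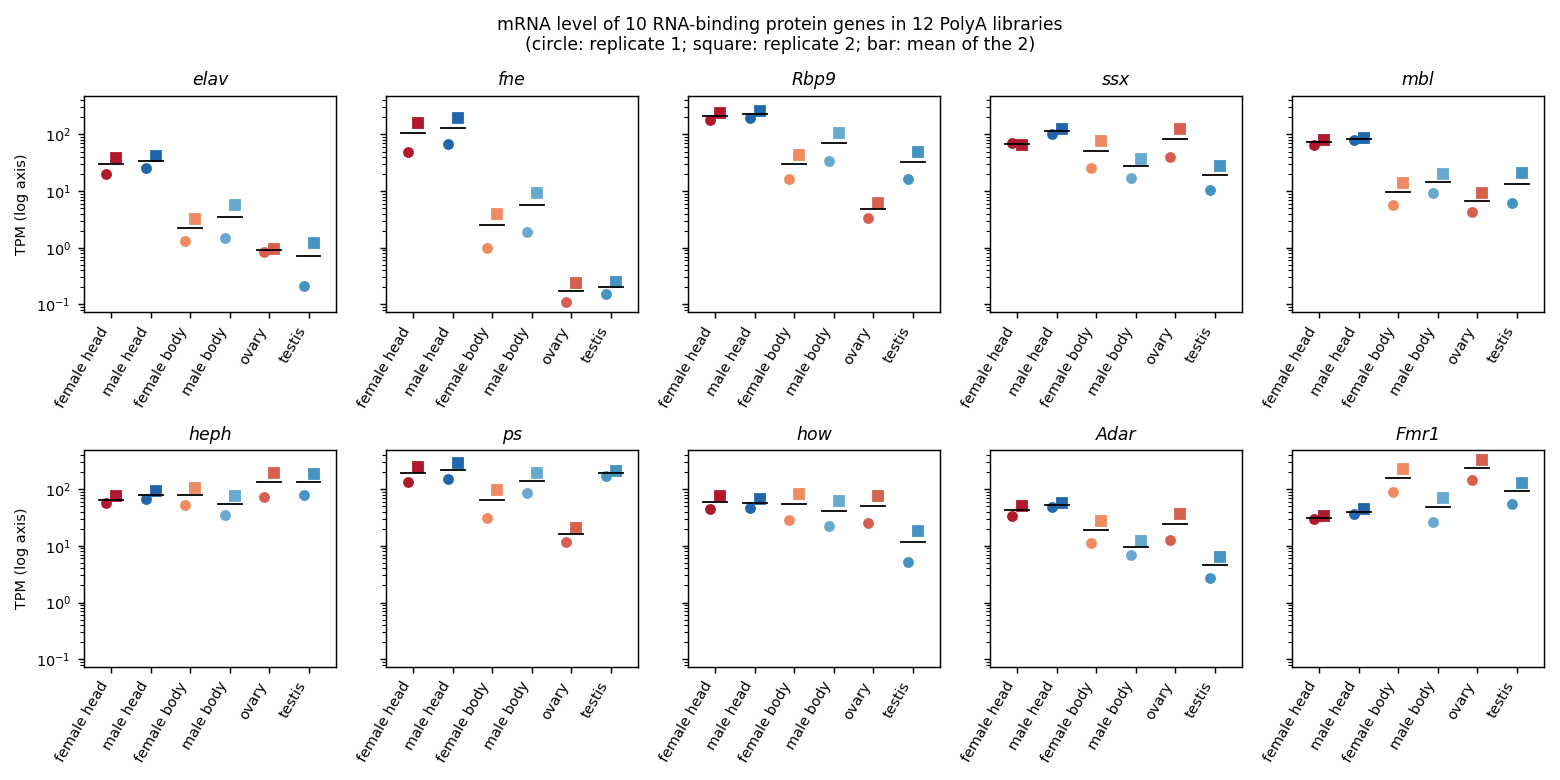
TPM (log axis) of each of the 10 genes in the 12 PolyA libraries, by group; circles are replicate 1, squares replicate 2 and bars the mean of both. The 4 head libraries lie above all others for elav, fne, Rbp9 and mbl, ps is lowest in ovary at 11.7 and 20.7 TPM, and Fmr1 is highest in ovary at 144 and 326 TPM.

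ssx, the paralogue of the sex-determination gene Sex-lethal, was present in every tissue. It had 69.5 and 65.1 TPM in female heads and 101 and 125 TPM in male heads, 25.8 and 77.7 TPM in female bodies and 17.2 and 37.5 TPM in male bodies, and 39.8 and 125 TPM in ovary against 10.3 and 28.2 TPM in testis. The 2 female head libraries lay below the 2 male head libraries, at a log2 fold change of -0.73 ± 0.73 (adjusted p = 1), and the ovary libraries lay above the testis libraries. It was higher in ovary than testis by 1.98 ± 0.73 (adjusted p = 0.0395), in male heads than male bodies by 2.10 ± 0.73 (adjusted p = 0.0412) and in male heads than testis by 2.64 ± 0.73 (adjusted p = 0.0108). Female heads against female bodies or ovary passed no test, with libraries that overlapped; against ovary the value of -0.07 turned to 1.23 (adjusted p = 0.0102) when scaled by the median of ratios. When TPM was rescaled by the median of ratios, ssx in ovary against testis moved to 0.55 (adjusted p = 0.158). The same call was lost without ovary replicate 2 (1.16, adjusted p = 0.283) or testis replicate 1 (1.29, adjusted p = 0.246). Male heads against bodies lost it without male head replicate 1 (2.26, adjusted p = 0.102), male head replicate 2 (1.95, adjusted p = 0.161) or male body replicate 1 (1.56, adjusted p = 0.211), and male heads against testis without male head replicate 2 (2.49, adjusted p = 0.0592) or testis replicate 1 (1.96, adjusted p = 0.0878).

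mbl (muscleblind), a zinc-finger splicing regulator needed in muscle and photoreceptors, was highest in heads, as were elav, fne and Rbp9. It had 65.1 and 80.5 TPM in female heads and 78.4 and 85.4 TPM in male heads, against 5.60 and 13.8 TPM in female bodies and 9.35 and 20.0 TPM in male bodies, 4.25 and 9.14 TPM in ovary and 6.24 and 21.0 TPM in testis. Heads stood apart from every other library, and the remaining 4 groups overlapped with their neighbours in the order. It was higher in female heads than female bodies by 2.90 ± 0.64 (adjusted p = 0.00585) and ovary by 3.33 ± 0.64 (adjusted p = 0.0019), and in male heads than male bodies by 2.49 ± 0.64 (adjusted p = 0.00923) and testis by 2.71 ± 0.64 (adjusted p = 0.00454). Without male body replicate 1 the male body comparison gave 1.98 (adjusted p = 0.072). The muscle markers summed to 3550 to 5770 TPM in heads and 4070 to 15500 TPM in bodies, where mbl was lower.

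heph, the fly polypyrimidine tract-binding protein gene, is needed for spermatid individualization. With deposited TPM it had its highest mean levels in the gonads and gave no call. It had 56.0 and 74.9 TPM in female heads and 65.9 and 92.1 TPM in male heads, 52.2 and 105 TPM in female bodies and 34.5 and 77.3 TPM in male bodies, and 72.8 and 193 TPM in ovary against 78.0 and 188 TPM in testis. The means were 133.0 TPM in ovary and 133.1 TPM in testis, against 55.9 TPM in male bodies, the lowest, and every group overlapped with the next in the order of levels, while male bodies lay apart from testis. No comparison of heph passed the threshold with deposited TPM and no block. Its smallest adjusted p was 0.184, in male bodies against testis (-1.21 ± 0.65), and with the replicate block that value was 0.0045. Female heads against ovary gave -0.86 ± 0.65 (adjusted p = 0.309, and 0.0185 with the block). It turned to 0.442 (adjusted p = 0.101) with the median of ratios and 1.179 (adjusted p = 0.000665) with scaled coverage. Female heads against bodies turned from -0.19 to 0.801 (adjusted p = 0.00943) and 1.429 (adjusted p = 0.000247), so heph passed as higher in heads. FPKM (0.088) and TPM without mitochondrial genes (0.464) did not pass there. Gonads minus heads turned from 0.233 to -1.402 with the median of ratios (adjusted p = 0.00236). The study's primers for the linear heph mRNA lie in coding exons of all 25 annotated transcripts, on 3R at 31873846-31873866 and 31866232-31866252, and so on sequence that these gene levels also include; they are shown in capitals in full.
CG31000-F: CATCGCGAACTAAAGACGGAC
CG31000-R: CACGGAGCACAGTATTGGGTC

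ps (pasilla), the fly orthologue of the mammalian neuronal splicing regulators NOVA1 and NOVA2, had TPM in testis within the range of heads, and was low in ovary. It had 134 and 248 TPM in female heads and 151 and 289 TPM in male heads, 31.4 and 97.4 TPM in female bodies and 85.3 and 196 TPM in male bodies, and 11.7 and 20.7 TPM in ovary against 170 and 212 TPM in testis. The ovary libraries lay below all others, and the testis libraries lay within the range of the heads. It was lower in ovary than testis by 3.52 on the log2 scale (log2 fold change -3.52 ± 0.66, adjusted p = 0.00108) and higher in female heads than ovary by 3.47 ± 0.66 (adjusted p = 0.00171), and both calls stayed past the threshold in all 13 alternatives of each. Male heads against testis gave 0.14 with a 95% interval of -1.33 to 1.61 (adjusted p = 0.88). This value turned to -0.19 (limma, adjusted p = 0.586) when TPM was scaled by the median of ratios. In coverage per base the heads stood apart, at 459 and 548 in female heads and 440.4 and 611 in male heads, against 203 and 172 in testis, and with coverage scaled by the median of ratios ps passed as higher in male heads than testis. Female heads against bodies gave 1.70 ± 0.66 (adjusted p = 0.073, and 0.0006 with the block). The accessory gland markers, which are part of the testis libraries, summed to 13800 to 17200 TPM there, and their part in the level of ps was not tested.

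how (held out wings), a STAR-family regulator of splicing and mRNA stability in muscle, tendon and glia, was low in testis. It had 44.2 and 76.1 TPM in female heads and 46.2 and 67.2 TPM in male heads, 28.4 and 81.4 TPM in female bodies and 22.2 and 61.4 TPM in male bodies, and 25.5 and 77.4 TPM in ovary against 5.27 and 18.2 TPM in testis. The 2 testis libraries lay below the other 10, which overlapped. It was higher in male heads than testis by 2.37 ± 0.80 (adjusted p = 0.0279) and in ovary than testis by 2.06 ± 0.80 (adjusted p = 0.0477). The second value moved to 0.67 (adjusted p = 0.108) when scaled by the median of ratios, 1.28 (adjusted p = 0.301) without ovary replicate 2 and 1.25 (adjusted p = 0.297) without testis replicate 1. The first lost its call without male head replicate 1 (2.64, adjusted p = 0.0603), male head replicate 2 (2.11, adjusted p = 0.13) or testis replicate 1 (1.56, adjusted p = 0.195).

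Adar, the only ADAR-type editing enzyme gene of the fly, was highest in heads and lowest in testis. It had 33.8 and 51.0 TPM in female heads and 48.1 and 57.0 TPM in male heads, 11.0 and 27.8 TPM in female bodies and 6.96 and 12.4 TPM in male bodies, and 12.6 and 36.7 TPM in ovary against 2.71 and 6.41 TPM in testis. The ranges of female heads and ovary overlapped, while male heads stood apart from male bodies and testis. It was higher in male heads than male bodies by 2.37 ± 0.63 (adjusted p = 0.0109), in male heads than testis by 3.35 ± 0.63 (adjusted p = 0.00109) and in ovary than testis by 2.11 ± 0.63 (adjusted p = 0.0155). Female heads against female bodies gave 1.19 ± 0.63 (adjusted p = 0.186, and 0.00671 with the block) and female heads against ovary 0.91 ± 0.63 (adjusted p = 0.267, and 0.0219 with the block). The ovary against testis value was 0.80 (adjusted p = 0.0141) when scaled by the median of ratios and 0.30 (adjusted p = 0.162) on scaled coverage. It was 1.38 (adjusted p = 0.132) without ovary replicate 2 and 1.61 (adjusted p = 0.116) without testis replicate 1, and male heads against bodies was 2.25 (adjusted p = 0.062) without male head replicate 2 and 1.997 (adjusted p = 0.0741) without male body replicate 1.

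With deposited TPM Fmr1 ran the other way, with its lowest group means in heads and its highest in ovary. It had 29.3 and 33.9 TPM in female heads and 36.0 and 44.7 TPM in male heads, 90.4 and 223 TPM in female bodies and 26.5 and 70.1 TPM in male bodies, and 144 and 326 TPM in ovary against 54.3 and 131 TPM in testis. Both female head libraries lay below the 4 libraries of female bodies and ovary, while male heads and male bodies overlapped. It was lower in female heads than ovary (log2 fold change -2.74 ± 0.67, adjusted p = 0.0072) and than female bodies (-2.14 ± 0.67, adjusted p = 0.032). Female against male bodies gave 1.70 ± 0.67 (adjusted p = 0.0676, and 0.00133 with the block) and ovary against testis 1.35 ± 0.67 (adjusted p = 0.109, and 0.0038 with the block). Male heads against testis, whose libraries did not overlap, gave -1.05 ± 0.67 (adjusted p = 0.21, and 0.0148 with the block). The ovary against testis value was -0.11 when scaled by the median of ratios. The call in female heads against ovary was lost without ovary replicate 2 (-2.16, adjusted p = 0.0618), and that against female bodies without female head replicate 1 (-2.04, adjusted p = 0.14), female head replicate 2 (-2.24, adjusted p = 0.0962) or female body replicate 2 (-1.49, adjusted p = 0.224).

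Of the 10 genes, 8 had their highest group mean of deposited TPM in a head group. The exceptions were heph, highest in testis, and Fmr1, highest in ovary. In female heads against female bodies 4 rose (elav, fne, Rbp9, mbl), 1 fell (Fmr1) and 5 did not pass, while 11.1% of all genes tested were higher and 24.1% lower. The median log2 fold change was 1.45 for the 10 genes and -0.38 for all genes. In female heads against ovary 5 were higher (the same 4 and ps) and 1 lower (Fmr1), with 19.1% and 28.5% of all genes, and medians of 2.12 and -0.48. In male heads against male bodies 5 were higher (elav, fne, ssx, mbl, Adar) and 0 lower, with 11.7% and 30.9% of all genes, and medians of 1.999 and -0.22. In male heads against testis 7 were higher (elav, fne, Rbp9, ssx, mbl, how, Adar) and 0 lower (Fmr1 was lower with the block), with 24.7% and 32.2% of all genes, and medians of 2.68 and -0.04. The share of the 10 genes that was higher in heads was above that of all genes in each of the 4 comparisons, which share the head libraries. The 10 genes were chosen for roles in neurons or splicing, with earlier results of these data known. The shares and medians are therefore a description and cannot test whether such genes are enriched in heads. Scaling by the median of ratios moved the median of all genes by 0.40 in female heads against bodies and by 0.49 against ovary, and with it 9 and 8 of the 10 genes were higher and Fmr1 alone was lower; among all genes the split became 3458 higher and 2597 lower against bodies, in place of 1430 and 3101, and 4166 and 2526 against ovary, in place of 2463 and 3667. With this scaling ps had its highest mean in testis (347 and 232, against 213 and 289 in male heads). So had Fmr1 (111 and 143, against 108 and 125 in ovary).

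**Figure D3:**
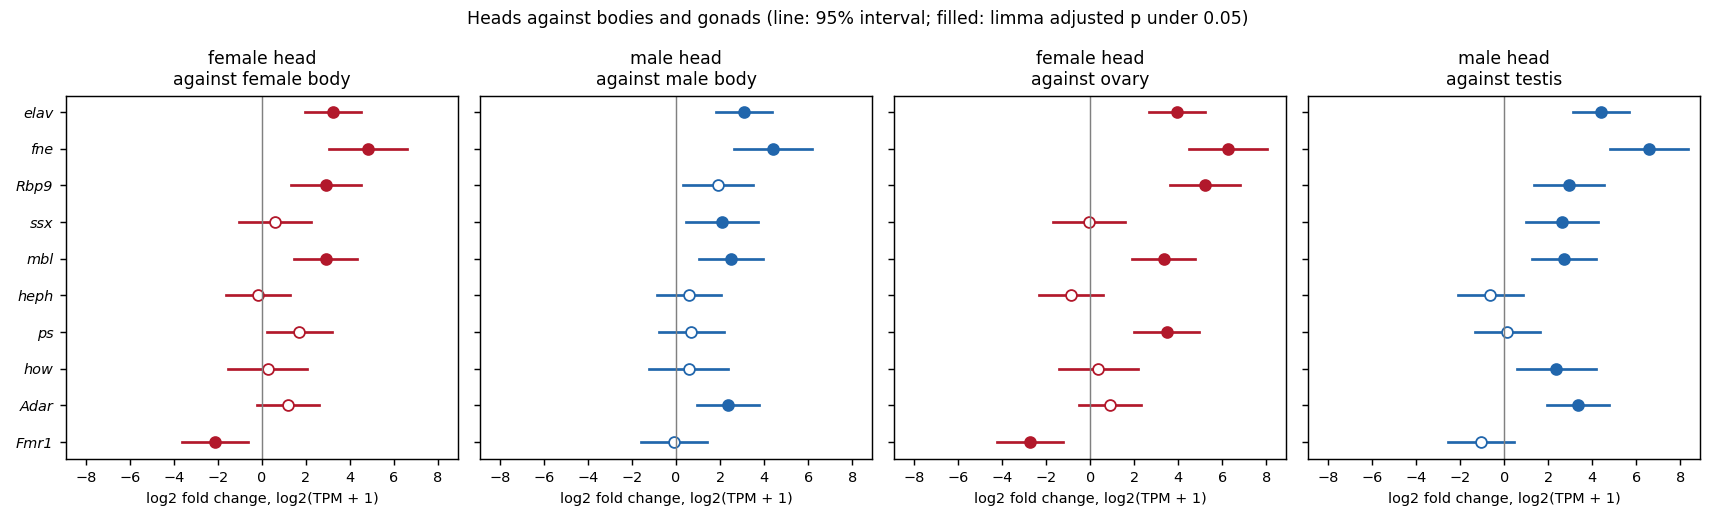
Log2 fold change on the log2(TPM + 1) scale (points) with its 95% interval (lines) for the 10 genes in female head against female body, male head against male body, female head against ovary and male head against testis; filled points passed an adjusted p of 0.05. elav, fne and mbl are filled to the right of 0 in all 4 panels, and Fmr1 is filled to the left of 0 in the 2 female panels, at -2.14 and -2.74.

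Setting the levels against the neuron markers of the same library separates genes that share a rank order. elav was 1.10% to 3.95% of the summed TPM of the 8 neuron markers over all 12 libraries, with heads at 1.41% to 2.28%, but that range rested on Syx1A, which made up 16.2 and 50.4 TPM of the 21.3 and 55.5 TPM in ovary. Over the 7 markers without Syx1A, elav was 1.47% to 2.43% in heads, 2.74% to 6.58% in bodies and 16.3% and 18.5% in ovary, against 1.60% and 5.24% in testis. Of the sum of all 8 markers, fne was 3.40% to 9.37% in heads, 2.24% to 6.60% in bodies and 0.426% to 0.797% in gonads. Without Syx1A it was at least 3.54% in heads and 1.09% to 4.57% in gonads, which overlapped. Rbp9 was 11.1% to 14.3% in heads, 37.6% to 74.2% in bodies and 11.2% to 15.9% in ovary, against 86.2% to 125% in testis. mbl was 3.81% to 4.72% in heads, 12.7% to 15.5% in bodies, 16.5% to 20.0% in ovary and 32.9% to 53.4% in testis. ps was 8.54% to 14.5% in heads, 71.3% to 142% in bodies, 37.3% to 54.8% in ovary and 540% to 895% in testis. The shares of Rbp9, mbl and ps are of all 8 markers. Those in ovary rested on Syx1A in the same way and would be higher without it, so they cannot be set level with heads. In testis, nSyb (9.0 and 16.5 TPM) and Syx1A (5.87 and 16.5 TPM) held most of the summed 19.0 and 39.3 TPM. Syx1A also made up 14.4 and 43.3 of the 44.0 and 91.9 TPM in female bodies. These shares are descriptions without a test, and 3 or 4 of the 8 markers were at 1 TPM or more in gonads.

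**Figure D4:**
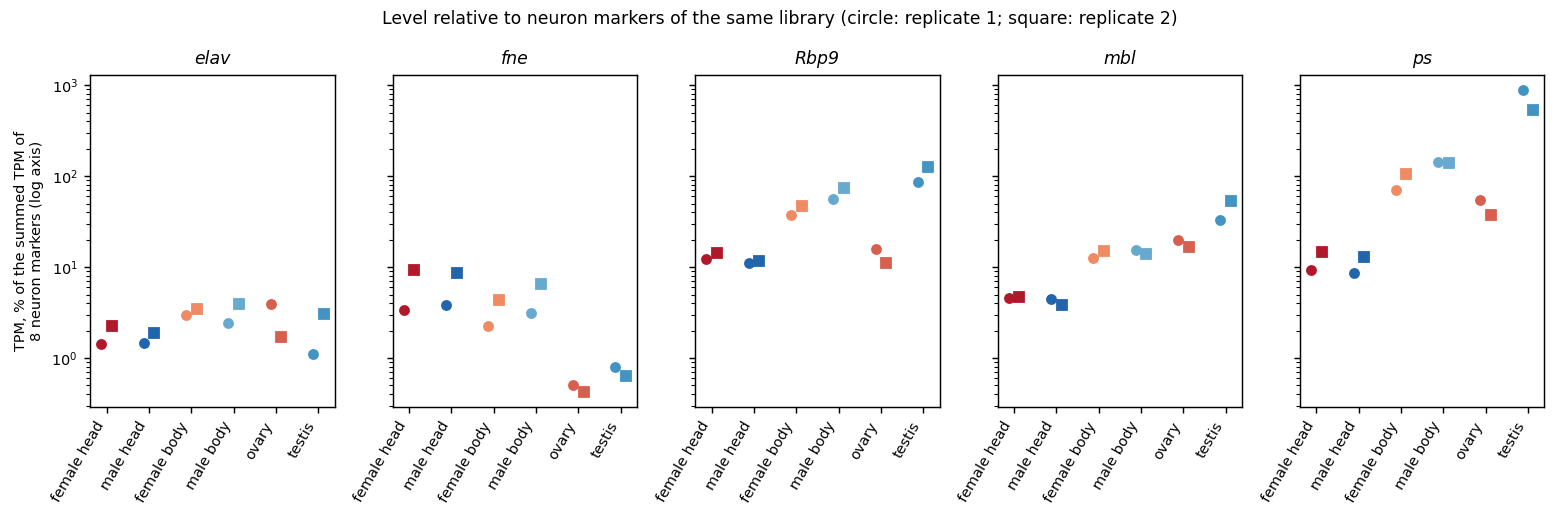
TPM of elav, fne, Rbp9, mbl and ps as a percentage of the summed TPM of 8 neuron markers in the same library (log axis), by group; circles are replicate 1 and squares replicate 2. elav stays within 1.10% to 3.95% in all 12 libraries, while ps is at 8.54% to 14.5% in heads and 540% to 895% in testis. The narrow range of elav rests on the marker Syx1A. Without it, elav is 1.47% to 2.43% in heads and 16.3% and 18.5% in ovary (not plotted).

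Between the sexes, heads showed no difference past the threshold. In female against male heads 0 of the 10 genes passed in limma (0 also at an unadjusted p under 0.05 and 0 with the replicate block), with 0.0388% of all genes higher and 0.0543% lower and medians of -0.24 for the 10 and -0.12 for all. Their log2 fold changes lay between -0.73 (ssx) and 0.06 (how), and the 95% intervals reached past 1 in both directions for all of them except ssx, whose interval ran from -2.37 to 0.90. ssx and Fmr1 (-0.34 ± 0.67, adjusted p = 1) were the members whose female and male head libraries did not overlap.

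Bodies likewise gave 0 of 10 in female against male bodies, with 1 gene at an unadjusted p under 0.05 (Fmr1), while 17.3% of all genes were higher and 25.1% lower. The medians were 0.00 for the 10 genes and -0.01 for all. With the replicate block 4 passed: Fmr1 and Adar were higher (0.85 ± 0.63 for Adar, adjusted p = 0.307 without and 0.0294 with the block) and Rbp9 (-1.13 ± 0.71, adjusted p = 0.23 and 0.014) and ps (-1.21 ± 0.66, adjusted p = 0.17 and 0.00397) were lower. Of all 12882 genes, 4452 were higher and 4048 lower with the block. Scaling by the median of ratios moved the median of all genes by -0.73 and gave 1 higher (Fmr1) and 5 lower (elav, fne, Rbp9, mbl, ps), with Adar at -0.04, ssx at -0.13, heph at -0.43 and how at -0.56, all 4 above 0 with deposited TPM and none past the threshold, and 2001 higher and 6486 lower among all genes, in place of 2235 and 3238.

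In ovary against testis ssx, how and Adar were higher, Rbp9 and ps were lower and 5 did not pass, while 29.5% of all genes were higher and 30.5% lower, and the medians were 0.10 and 0.07. The share called among the 10 was 5 of 10 and so close to that of all genes. Scaling by the median of ratios moved the median of all genes by -0.74 and left Adar higher and Rbp9, mbl, heph and ps lower, with 2564 higher and 6322 lower among all genes, in place of 3805 and 3933. Rbp9 and ps were thus lower in ovary with either scaling, at -3.65 and -4.92 with the median of ratios.

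**Figure D5:**
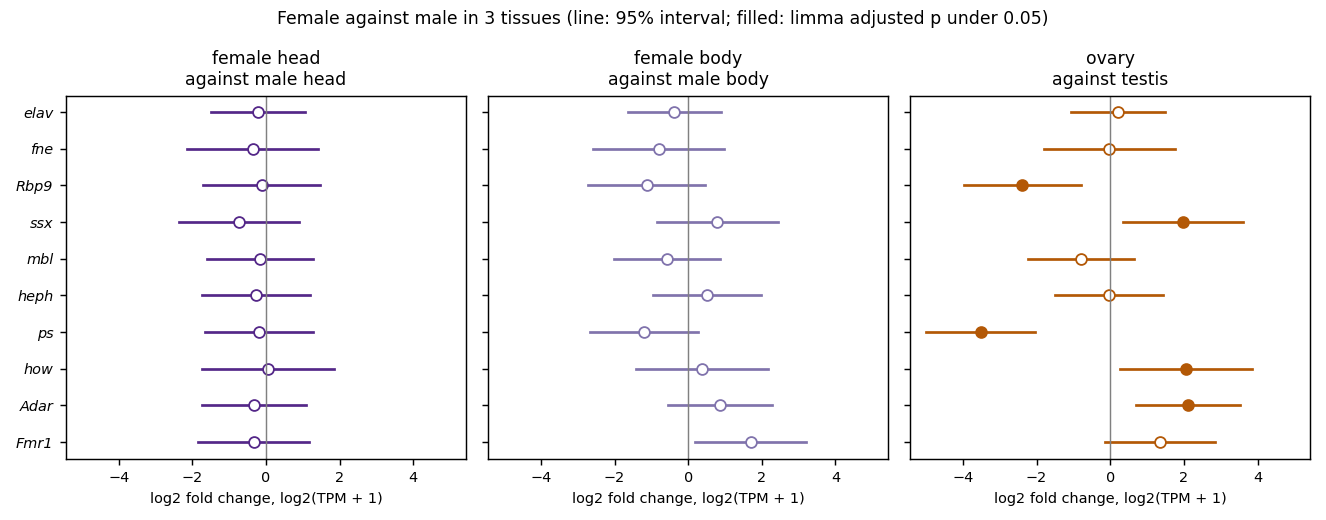
Log2 fold change, female over male, on the log2(TPM + 1) scale (points) with its 95% interval (lines) for the 10 genes in heads, bodies and gonads; filled points passed an adjusted p of 0.05. No point is filled in heads or bodies, and in ovary against testis ssx, how and Adar are filled at 1.98 to 2.11 and Rbp9 and ps at -2.39 and -3.52.

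A test of the sex difference in gonads against that in heads called 2 of the 10 genes. ps had a sex difference of -3.52 in gonads and -0.20 in heads, a difference of -3.33 ± 0.93 (adjusted p = 0.014). Adar had 2.11 in gonads and -0.33 in heads, a difference of 2.44 ± 0.89 (adjusted p = 0.0457). Over all genes 21.7% were higher and 26.8% lower, and with scaling by the median of ratios, which moved the median by -0.97, 1986 higher and 5638 lower, in place of 2792 and 3456. With the replicate block 6 passed, ssx, how, Adar and Fmr1 higher and Rbp9 and ps lower, among them ssx at 2.71 ± 1.03 (adjusted p = 0.0535 without and 0.00222 with the block) and Rbp9 at -2.27 ± 1.00 (adjusted p = 0.0877 and 0.00185). The block gave 5040 higher and 3981 lower among all 12882 genes. The ps call was lost without female head replicate 2 (-2.89, adjusted p = 0.0558) or male head replicate 1 (-2.86, adjusted p = 0.0559). The Adar call was lost without female head replicate 1 (2.15, adjusted p = 0.14), female head replicate 2 (2.73, adjusted p = 0.0646), male head replicate 1 (2.56, adjusted p = 0.0831), male head replicate 2 (2.32, adjusted p = 0.12), ovary replicate 2 (1.71, adjusted p = 0.164) or testis replicate 1 (1.94, adjusted p = 0.158). On scaled coverage Adar was at 0.42 (adjusted p = 0.178).

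The same test of bodies against heads called 0 of the 10 (0 also at an unadjusted p under 0.05), with 10.5% of all genes higher and 22.0% lower. With the block ssx, Adar and Fmr1 passed, Fmr1 at 2.04 ± 0.95 (adjusted p = 0.14 without and 0.00439 with the block). The block gave 3983 higher and 3224 lower among all 12882 genes. With scaling by the median of ratios 4 passed, Fmr1 higher and Rbp9, mbl and ps lower, and all genes split into 1454 higher and 5543 lower, in place of 1354 and 2837, with a move of the median by -0.87.

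Bodies, which include the gonads, were compared with them last. In female bodies against ovary 0 of 10 passed in limma, with 2 at an unadjusted p under 0.05, while 11.5% of all genes were higher and 0.116% lower. With the block Rbp9 (2.30 ± 0.71, adjusted p = 0.0738 without and 0.000809 with it) and ps (1.77 ± 0.66, adjusted p = 0.163 and 0.0014) were higher. Of all 12882 genes, 2065 were higher and 151 lower with it. In male bodies against testis 0 of 10 passed, with 3 at an unadjusted p under 0.05, while 16.1% were higher and 20.4% lower over all genes. With the block 7 passed, elav (1.31 ± 0.57, adjusted p = 0.104 without and 0.00508 with it), fne (2.20 ± 0.79, adjusted p = 0.0552 and 0.00299), Rbp9, how and Adar higher and heph and Fmr1 lower. Of all 12882 genes, 3436 were higher and 4201 lower with the block.

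Other RNA-binding protein genes gave the setting: of a list of 55 hnRNP, SR, sex-determination, STAR-family and other neural or translational regulators, 54 were found and tested. This list and the 10 genes were both chosen with earlier results of these data known, so their medians are set side by side only as a description. In female heads against ovary 8 were higher and 22 lower, with a median of -0.99, where the 10 genes had 2.12. Rbp6 was at 169 TPM in female heads against 1.98 TPM in ovary (log2 fold change 5.82), and orb, an oogenesis translation regulator, at 4.18 against 215 TPM (-5.24). In female heads against female bodies 6 were higher and 13 lower, led by Rbp6 (4.63) and bru-3 (3.93) and by orb (-4.45) and aret (-3.73). In male heads 14 were higher than in bodies and 7 lower, and 16 higher than in testis and 10 lower, with Rbp6 at 241 TPM in heads against 4.07 TPM in testis. In ovary against testis 31 were higher and 5 lower, with a median of 1.52 where the 10 genes had 0.10. There brat (110.0 against 5.10 TPM) and x16 (157 against 10.1 TPM) were the largest rises, and Syp (12.8 against 1028 TPM) and orb2 (5.48 against 470.5 TPM), which acts in spermatogenesis and memory, the largest falls. The wider list was not followed under other scalings, and the median of ratios moved the median of all genes by -0.74 in ovary against testis. In female against male bodies 18 of the list were higher and 5 lower, in female against male heads 0 of 54 passed, in female bodies against ovary 0 passed, and in male bodies against testis 0 were higher and 3 lower. Over all genes 11.5% were higher and 0.116% lower in female bodies against ovary, and 16.1% and 20.4% in male bodies against testis. The sex difference of gonads exceeded that of heads for 24 genes of the list and fell below it for 5, and that of bodies for 6 and 5. The shares of all genes higher and lower were 19.1% and 28.5% in female heads against ovary and 11.1% and 24.1% against female bodies. They were 11.7% and 30.9% in male heads against bodies and 24.7% and 32.2% against testis. In ovary against testis they were 29.5% and 30.5%, and in female against male bodies 17.3% and 25.1%. For gonads minus heads they were 21.7% and 26.8%, and for bodies minus heads 10.5% and 22.0%.

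Over the 12 libraries, which share their tissues and the mt:ATPase8 difference, the log2 levels of elav and fne had a Pearson r of 0.99 and those of elav and mbl 0.95, and ssx and Adar 0.95, while Fmr1 had -0.57 with elav and 0.73 with heph. The genes with the levels most like elav were Eip78C, shakB, which codes for an innexin of electrical synapses, and corn, at r of 0.99 or above (Eip78C 0.9955, shakB 0.9949, corn 0.9945). For fne they were Alk (0.9978), a receptor tyrosine kinase gene, CG9507 (0.9977) and the glial transcription factor gene repo (0.9974). For Rbp9 they were alpha-Est8 (0.9871), CG17111 (0.9861) and Vha68-1 (0.9861), and for mbl CG15097 (0.9887), bchs (0.9872) and CG12991 (0.9857). For ssx they were CG12090 (0.9797), CG4294 (0.9785) and CG6700 (0.9782), and for Adar Nhe3 (0.9935), CG13204 (0.9921) and chrb (0.9918). For ps they were CG34120 (0.9841), Esyt2 (0.9808) and CG10348 (0.9786), and for how CG5830 (0.9912), rudhira (0.9884) and myo (0.9855). For Fmr1 they were alph (0.994), Lam (0.9935), the lamin gene, and CG1109 (0.9928), while heph had lower values, with Tbce (0.9621), fra (0.9617) and CG1316 (0.9529).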

How the data were processed

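The PolyA RNA of 12 libraries was measured, 2 for each of 6 groups, and 25 of the 37 samples (18 of other RNA fractions of the tissues and 7 of PAR-CLIP in Kc cells) were not used here. Per the methods and the submitters' processing notes, the authors trimmed reads with cutadapt, mapped them to dm6 with STAR 2.6.1a, used the Ensembl annotation, and the notes name StringTie 2.0, whose table layout the files have. The deposited tables give TPM, FPKM and coverage per gene, 1 table per library, with no read counts, so no count model was used. The signal named coverage is the deposited mean read depth over a gene, not normalized between libraries.

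TPM were taken as log2(TPM + 1), a pseudocount of 1, for the 12882 genes with a mean of at least 1 TPM, and tested with limma 3.58.1 (R 4.3.3), with 1 mean per group, the trend option and Benjamini-Hochberg adjustment over all genes in each comparison, a threshold of 0.05 and two-sided p-values. All 12 libraries shared 1 estimate of spread. Lists of RNA-binding protein genes and cell markers, and the 10 genes, were chosen with earlier results of these data known. Named genes were the 10, at most 2 rises and 2 falls of the wider list per comparison, and the 3 genes with the highest r for each. Replicate numbers paired the libraries: deviations from the group means correlated by 0.345 to 0.769 (median 0.473), above 0.1 in 15 of 15 pairs of groups, so values with the replicate number as a block are given where they change a call. Alternatives were a pseudocount of 0.1, no filter, FPKM, median of ratios, TPM without mitochondrial genes, the block, only the libraries compared and leaving out each library; coverage scaled by the median of ratios, the median of ratios with the block, and neuron marker sums without Syx1A were chosen after seeing the data. The median of ratios used 6381 genes with at least 1 TPM in every library. The fit was tested on simulated data. Gene coordinates were the same in the tables and in Ensembl release 115 for all 10 genes, and sequences were read from that dm6 assembly. Primer sequences came from the study's primer list.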

Additional observations from a re-analysis of the deposited data

Results flagged for a closer look

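The sex difference of ps in gonads, at -3.52, was set apart from that in heads, at -0.20, by the test of the difference itself, -3.328 on the log2 scale (limma, adjusted p = 0.014). In gonads ps had 11.7 and 20.7 TPM in ovary against 170 and 212 TPM in testis, and in heads 134 and 248 TPM in females against 151 and 289 TPM in males.

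The sex difference of Adar in gonads, at 2.11, differed from that in heads, at -0.33, by 2.439 (limma, adjusted p = 0.0457). This call was close to the threshold and depended on the processing. It was lost without the filter on low values and on scaled coverage (0.42, adjusted p = 0.178), and, as given above, without several of the single libraries. Adar had 12.6 and 36.7 TPM in ovary against 2.71 and 6.41 TPM in testis, and 33.8 and 51.0 TPM in female heads against 48.1 and 57.0 TPM in male heads. The accessory gland, which the testis libraries contain and the ovary libraries do not, summed to 13800 to 17200 TPM of marker genes in testis against 42.6 to 145 TPM in ovary, and its part in either difference was not tested.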

How the results depend on the processing

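Of the 30 gene calls made with the deposited TPM, 16 stayed past the threshold in every alternative, and in 398 single values of these 30 calls the direction turned in 0. The number of the 10 genes called was 0 in female against male heads in every alternative and moved by over 1.5 times elsewhere as follows; the other counts, with the replicate block 7 in female heads against bodies, 8 against ovary, 6 in male heads against bodies, 8 against testis and 6 in ovary against testis, moved by less. Fmr1 in female heads against bodies lost its call with only the libraries compared (-2.14, adjusted p = 0.0522). In female against male bodies it was 0, against 4 (FPKM), 6 (median of ratios), 3 (without mitochondrial genes), 4 (replicate block), 7 (scaled coverage) and 8 (median of ratios with the block). In ovary against testis it was 5, against 3 without a filter and 2 with only the libraries compared. In female heads against bodies it was 5, against 10 with the median of ratios, with scaled coverage and with the median of ratios and the block; in female heads against ovary 6, against 10 with scaled coverage and with the median of ratios and the block. In female bodies against ovary it was 0, against 1 (pseudocount 0.1), 2 (FPKM, median of ratios, without mitochondrial genes, replicate block, scaled coverage) and 3 (median of ratios with the block). In male heads against bodies it was 5, against 8 without mitochondrial genes and with scaled coverage. In male bodies against testis it was 0, against 1 (pseudocount 0.1, only the libraries compared), 7 (FPKM, median of ratios, replicate block), 5 (without mitochondrial genes), 6 (scaled coverage) and 8 (median of ratios with the block). For the sex difference of gonads minus that of heads it was 2, against 1 (no filter), 6 (FPKM, without mitochondrial genes, replicate block, median of ratios with the block), 5 (median of ratios, scaled coverage) and 4 (only the libraries compared), and for bodies minus heads 0, against 3 (FPKM, replicate block), 4 (median of ratios, scaled coverage), 1 (without mitochondrial genes) and 7 (median of ratios with the block). Calls over all genes also moved with the setting. In female against male bodies they were 3849 higher and 4442 lower (FPKM) and 3624 and 4178 (without mitochondrial genes). For gonads minus heads they were 4225 and 4115 (FPKM) and 4621 and 3856 (without mitochondrial genes). For bodies minus heads they were 2943 and 3637, and 2788 and 3282, in these settings. For these comparisons, those with the block or the median of ratios are given above.

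Leaving out 1 library gave 0 to 1 genes in female against male bodies, 0 to 1 in female bodies against ovary, 3 to 5 in female heads against bodies, 5 to 6 in female heads against ovary, 0 to 2 in male bodies against testis, 2 to 6 in male heads against bodies, 5 to 7 in male heads against testis, 2 to 4 in ovary against testis, 0 to 3 for gonads minus heads and 6 to 8 genes highest in a head group; the lone library of a group was taken to vary like the others. The lowest counts came without male body replicate 1 (2) and male head replicate 2 (3) in male heads against bodies, without ovary replicate 2 or testis replicate 1 (2 each) in ovary against testis, without female head replicate 2 (3) in female heads against bodies, and without female head replicate 2 or male head replicate 1 (0 each) for gonads minus heads. Of the 80 uncalled values, 22 turned in at least 1 alternative other than leaving out a library (18 with the median of ratios), and 8 of these turned values passed the threshold in an alternative. Among the uncalled values followed singly, turns were those of Adar in female against male bodies (-0.036 with the median of ratios and with its block, -0.519 with scaled coverage), Fmr1 in ovary against testis (-0.112, -0.112 and -0.147) and heph in female heads against ovary (0.442, 0.442 and 1.179). Over all genes, the calls in male bodies against testis were 2079 higher and 2625 lower, against 1933 and 406 with a pseudocount of 0.1 and 1341 and 411 with only the libraries compared; without mitochondrial genes they were 3708 and 1987. That setting also gave 5937 higher and 3937 lower in male heads against testis, in place of 3177 and 4148, and 3795 and 4076 in male heads against bodies, in place of 1504 and 3981, with moves of the median of all genes by 0.69 and 0.43; in female heads it gave 2649 and 3114 against bodies and 3424 and 3306 against ovary, with moves of 0.29 and 0.31. Male bodies against testis gave 3442 and 3626 with FPKM and 3128 and 4569 with the median of ratios. With the block, all genes split into 2069 higher and 5125 lower in female heads against bodies and 2957 and 5513 against ovary. The block gave 2797 and 4957 in male heads against bodies, 4612 and 4997 against testis, and 5278 and 4467 in ovary against testis. The cause of these changes was not tested. No read counts were used, so no counting error is given for the low levels of elav and fne in gonads.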
